A study of Mus musculus with 2 samples.

Results

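Genomic imprinting leaves 1 parental copy of a gene active and the other silent, through DNA methylation set in the egg or sperm. Many imprinted genes act on growth in the embryo, and they are often transcribed together in growing tissues and shut down as tissues mature, which is why they have been described as a network. In the muscle lineage several are active in precursor cells, and H19, Dlk1 and Gtl2 are known markers of growing or regenerating muscle. The 10 genes described here are H19, Dlk1, Gtl2 (now Meg3), Mest, Peg3, Plagl1, Grb10, Ndn, Sgce and Zim1. They were taken as every probe whose gene name on the array matched, which gave 21 of the 41174 distinct probes. At least 1 probe of each of the 10 genes was bright enough to be tested, so all 10 are among the 18068 tested genes.

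The cells were C2C12, an established myoblast line that the labels place in adult leg muscle of C3H mice. One group stably expressed a short hairpin RNA against Mybbp1a, which encodes a mainly nucleolar protein that binds transcription factors, and the other stably expressed a control hairpin. Both groups were mixtures of stable clones grown in serum-rich medium below confluence, and whether each replicate had its own pool of clones is not stated. Total RNA of knockdown cells in Cy5 and of control cells in Cy3 was put together on each of 2 arrays, described as biological replicates. The dyes were not swapped, so a dye bias cannot be told apart from the knockdown. Separate cultures are not named, so the spread between the 2 arrays may be partly technical. A limma p-value here combines that spread of a gene with a variance pooled over all tested genes. Values are log2 ratios of knockdown over control after loess normalization, with the SD over the 2 arrays, and levels are normalized log2 intensities of each channel.

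Mybbp1a itself was 3.42-fold lower, at log2 ratios of -1.64 for array 1 and -1.91 for array 2. All 8 myoblast markers, among them Myod1, Des and Cdh15, were bright enough to be tested. No tested gene passed limma's adjusted p of 0.05 (0 percent of genes, and 0 of the 10), while at an unadjusted limma p under 0.05 there were 2414 genes higher (13.4 percent) and 1354 lower (7.49 percent). The fit leaves 1 residual degree of freedom, and the smallest p of an exact sign-flip test on 2 arrays is 0.5. Across genes, which are not independent replicates, Pearson's r between the arrays was 0.53 and Spearman's rho 0.56. The ratios spread more widely on array 2 (SD 0.43) than on array 1 (0.31).

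The sequences below are what the array read for the genes that the results turn on. Each probe is a 60-mer, printed 5′ to 3′ as the files list it, with positions on mouse build mm8. The H19 and Gtl2 probes match non-coding RNAs. Only the first 30 bases of the Mest probe are shown, and no base is marked in capitals.
H19 A_51_P142196, chr7:142385254-142385313, minus strand: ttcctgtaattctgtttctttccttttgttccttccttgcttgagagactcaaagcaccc
H19 A_52_P571350, chr7:142385503-142385650, minus strand: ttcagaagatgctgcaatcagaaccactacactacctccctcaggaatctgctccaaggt
Mest A_51_P124535, chr6:30698289-30698348, plus strand: tctgaaagacctaagagcaaatggtgctga
Peg3 A_51_P206037, chr7:6311815-6311874, minus strand: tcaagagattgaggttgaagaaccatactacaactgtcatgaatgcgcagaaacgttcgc
Sgce A_52_P27864, chr6:4641640-4644080, minus strand: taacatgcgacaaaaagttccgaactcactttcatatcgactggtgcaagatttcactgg
Gtl2 A_52_P99341, chr12:110006769-110006828, plus strand: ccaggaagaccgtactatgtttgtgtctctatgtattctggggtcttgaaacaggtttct
The second H19 probe was placed over 148 bp and this Sgce probe over 2441 bp, so that their mm8 placements span more than the probe. The same held for 1 probe of Gtl2 and 1 of Grb10, 4 of the 21 in all.

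H19, a maternally expressed non-coding RNA that restrains growth, had the highest mean ratio of the 10 genes. Its first probe, A_51_P142196, had a level of 11.48 in knockdown and 9.86 in control RNA on array 1, and 12.09 and 10.67 on array 2. The control RNA was thus the lower on both arrays, and both knockdown levels lay above both control levels. The share of all tested genes that separate in this way was not counted. The log2 ratios were 1.61 and 1.41, a mean of 1.51 ± 0.14 (SD, n = 2) or 2.86-fold higher, with a limma standard error of 0.097. The limma adjusted p was 0.176. Before any correction the scanner read 4364 for knockdown against 614 for control on array 1, and 6983 against 987 on array 2. These readings overstate the ratio, since Cy5 was the brighter dye over each array. Median signals were 329 in Cy5 against 159 in Cy3 on array 1, and 449 against 184 on array 2. Local backgrounds were between 45 and 55.

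The second H19 probe, A_52_P571350, gave a larger ratio with almost no spread. Its levels were 10.66 in knockdown and 8.63 in control RNA on array 1, and 10.78 and 8.76 on array 2. The log2 ratio was 2.03 on each array, or 4.08-fold higher. In the fit over all tested probes its adjusted p was 0.137 in limma. Both probes were well above background in both channels on both arrays, so the direction does not rest on 1 probe or 1 array.

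H19 was the only 1 of the 10 members at least 2-fold apart in the same direction on both arrays. Over all tested genes 0.631 percent were at least 2-fold higher on both arrays and 0.0553 percent lower, 114 and 10 of 18068. On array 1 alone 1.41 percent were at least 2-fold higher, with H19 the 1 member among them, and on array 2 alone 2.73 percent, with 2 members, H19 and Mest. By its mean ratio H19 ranked 75 of 18068 genes from the top. It passed limma's threshold only under median centring in place of loess, at 1.77 with an adjusted p of 0.0279, a setting that put the median tested gene at 0.21 in place of 0.03. Over the processing alternatives with both arrays the adjusted p ran from 0.0279 to 0.180. Markers of other cells moved beside it, and their part in the result was not tested. Over all tested genes 40.6 percent were higher on both arrays and 29.4 percent lower. Of 8 fibroblast markers 6 were tested and 5 were higher on both arrays, with a median of 0.91. The other tested marker, Postn, had 0.42 and -0.60, while Thy1 and Tcf21 had no channel well above background at their brightest probe. The log2 of the summed level of the tested ones was 18.16 and 18.41 in knockdown RNA against 17.49 and 17.08 in control RNA. Of 8 markers of differentiating muscle 5 were higher and 2 lower on both arrays, with summed levels of 12.14 and 11.78 against 11.67 and 11.64. The 8 myoblast markers had 4 higher and 1 lower on both arrays, with summed levels of 17.20 and 17.01 against 17.25 and 16.99. The shares of cells of a type and the RNA in each cell cannot be told apart in such bulk samples.

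**Figure D1:**
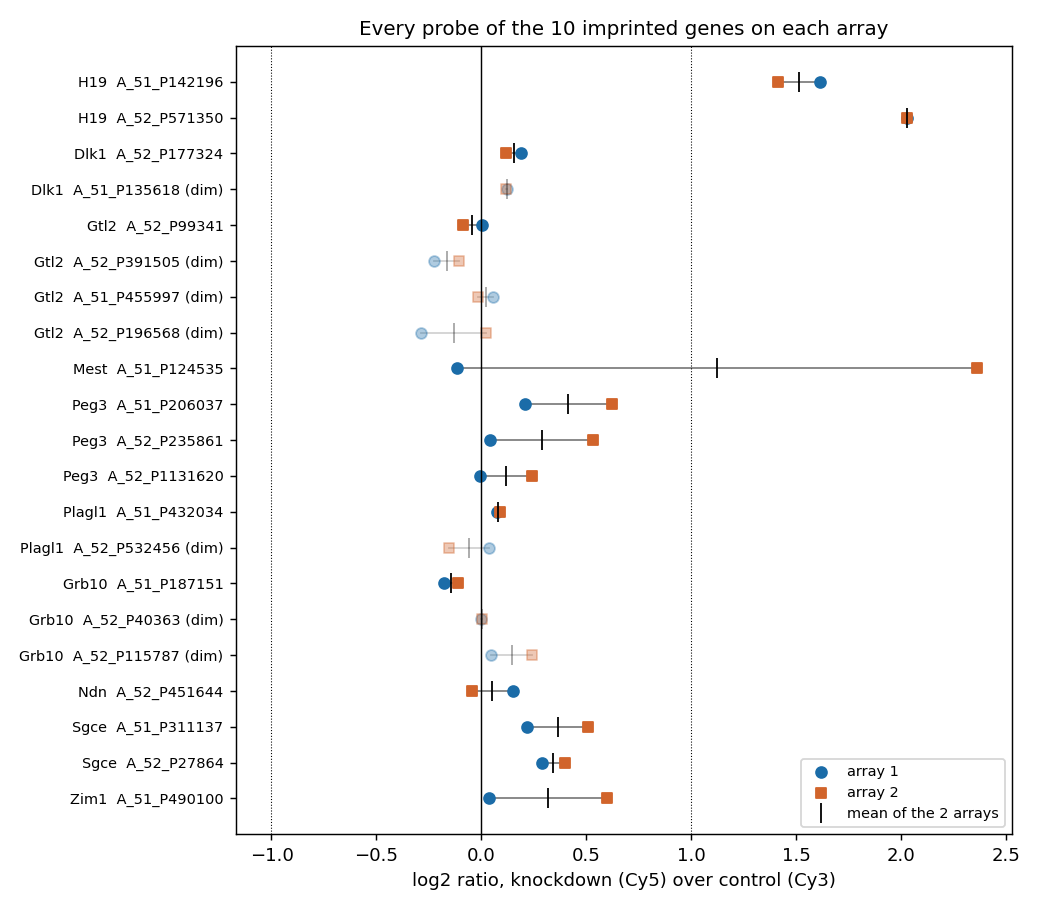
Log2 ratio of knockdown over control for each of the 21 probes on array 1 (circles) and array 2 (squares), with the mean as a vertical tick. Dotted lines mark a 2-fold ratio. Pale points are dim probes, which were not tested. Both H19 probes lie beyond 2-fold on both arrays, and Mest runs from -0.12 on array 1 to 2.36 on array 2.

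Mest, also called Peg1, encodes a paternally expressed protein related to alpha/beta hydrolases and gave the widest gap between the arrays of the 10 genes. On array 1 the level was 10.21 in knockdown and 10.33 in control RNA. On array 2 it was 9.11 in knockdown RNA, and 6.75 in control RNA, where the probe was not well above background. The 2 groups therefore overlap, and the control RNA of array 2 is the sample that stands low. The log2 ratios were -0.12 and 2.36, so the mean of 1.12 ± 1.75 (SD, n = 2) describes neither array. The limma adjusted p was 0.417. Only 1 probe reads Mest, so no second probe checks this. Its scanner signal in Cy3 was 849 on array 1 and 80.2 on array 2, over backgrounds of 51 and 45.

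Because the control reading on array 2 was not well above background, the array 2 ratio is a bound. Taking the higher of the probe's own level and the lowest level of any probe well above background in that channel, which here was its own, knockdown RNA was at least 5.13-fold higher on array 2. Likewise, from array 1 to array 2 the level in control RNA fell by 3.58 or more on the log2 scale. In knockdown RNA, where both readings were well above background, it fell by 1.11. With the processed signals of the scanning software, median-centred, the array 2 ratio was 4.32 and the mean 2.07. The authors' deposited table gave 4.26 for array 2 and left array 1 blank. Requiring both channels well above background also left Mest out.

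**Figure D2:**
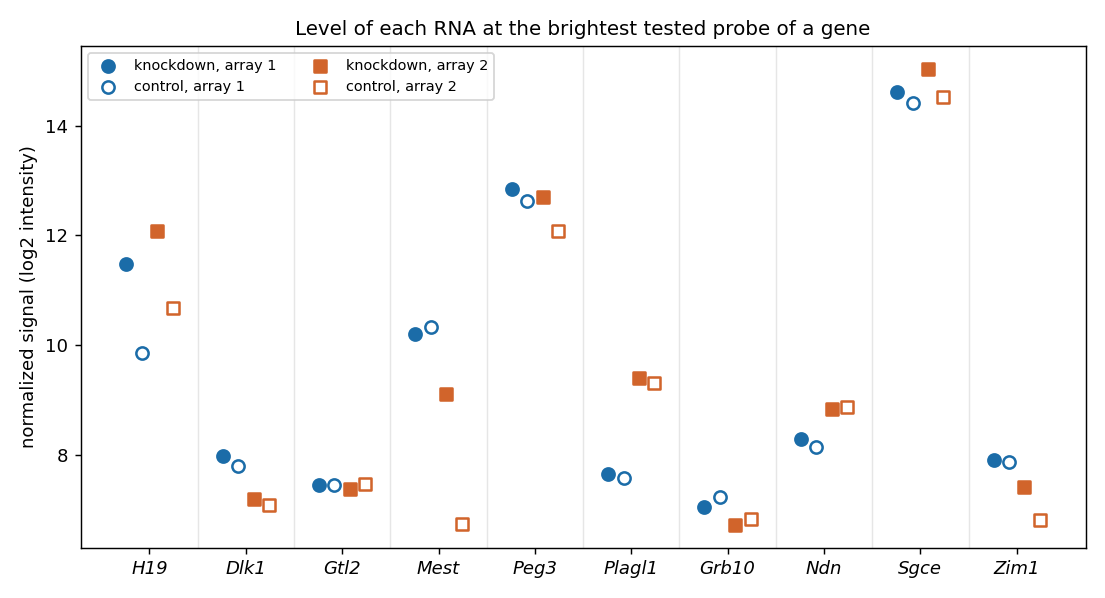
Normalized log2 intensity of the brightest tested probe of each gene in knockdown (filled) and control RNA (open) on array 1 (circles) and array 2 (squares). The open square of Mest at 6.75 lies far below its other 3 points, both open H19 points lie below both filled ones, and Plagl1 is higher on array 2 in both RNAs.

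Peg3 and Zim1 are neighbours in 1 imprinted domain, Peg3 a paternally expressed zinc finger protein and Zim1 a maternally expressed one. Peg3 at its brightest probe, A_51_P206037, had levels of 12.84 in knockdown and 12.64 in control RNA on array 1, and 12.70 and 12.08 on array 2. Both knockdown levels were above both control levels, by little on array 1, and the share of all tested genes doing so was not counted. Its log2 ratios were 0.21 and 0.62, a mean of 0.41 ± 0.29 (SD, n = 2) or 1.33-fold, with a limma adjusted p of 0.239. The other 2 tested probes gave 0.04 and 0.53 (A_52_P235861), and -0.01 and 0.24 (A_52_P1131620). All 3 probes gave the larger ratio on array 2, and the dimmest of them, from a clone the file describes as unclassifiable, did not share the sign on array 1. Over all tested probes Peg3 averaged 0.27, and median centring gave 0.70 with a limma adjusted p of 0.0390.

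Zim1 had 1 probe, with levels of 7.92 in knockdown and 7.88 in control RNA on array 1, and 7.42 and 6.82 on array 2. As for Mest, the control RNA of array 2 was the lowest and was not well above background. The ratios on the log2 scale, 0.03 and 0.60, had a mean of 0.32 ± 0.40, smaller than the spread, and the limma adjusted p was 0.380. The processed signals gave a mean of 0.69. From array 1 to array 2 the control level of Zim1 fell by 1.06 or more, since its array 2 reading was dim, and that of Peg3 fell by 0.56.

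Sgce encodes epsilon-sarcoglycan, a paternally expressed membrane protein related to the dystrophin-associated sarcoglycans of muscle. Its brightest probe, A_51_P311137, had levels of 14.62 in knockdown and 14.40 in control RNA on array 1, and 15.04 and 14.53 on array 2. The groups did not overlap, though the lower knockdown level was only just above the higher control level. How many of all tested genes separate in this way was not counted. This gave log2 ratios of 0.22 and 0.51, a mean of 0.36 ± 0.21 (SD, n = 2) or 1.29-fold, with a limma adjusted p of 0.224. The second probe gave 0.29 and 0.40, a mean of 0.34 ± 0.08, so the probes differed little. Median centring gave 0.75 with a limma adjusted p of 0.0326.

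Of the sarcoglycan and dystroglycan genes, 7 of 8 were tested, 5 were higher on both arrays and 0 lower, and none passed limma. Among all tested genes 40.6 percent were higher on both arrays and 29.4 percent lower. The median ratio of the 7 was 0.48. Sgca, which encodes alpha-sarcoglycan of striated muscle, had 1.08 and 0.66. Sgcd had 0.18 and 1.03, and Sspn, sarcospan, 0.01 and 0.95, so these last genes differed mainly on array 2. Dag1, the dystroglycan precursor, had -0.09 and 0.22.

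Dlk1 and Gtl2 lie in 1 imprinted domain and are expressed from opposite parental copies. Dlk1, a paternally expressed transmembrane protein related to Notch ligands and also known as preadipocyte factor, had levels of 7.99 in knockdown and 7.80 in control RNA on array 1, and 7.21 and 7.09 on array 2. Its log2 ratios were 0.19 and 0.12, a mean of 0.15 ± 0.05 (SD, n = 2), with a limma adjusted p of 0.375. Within each array the knockdown was slightly the higher, but the arrays differed from each other by more, since from array 1 to array 2 the level fell by 0.78 in knockdown RNA and fell by 0.71 in control RNA. A second, dim probe gave 0.12 on both arrays. The processed signals gave 0.33, an offset of 16 in place of 50 gave 0.19, and median centring 0.13. The SD over the arrays does not include this difference between processings.

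Gtl2, a maternally expressed non-coding RNA, had 1 tested probe of 4. Its levels were 7.45 and 7.45 on array 1, and 7.39 in knockdown and 7.48 in control RNA on array 2. Its log2 ratios were 0.0026 and then -0.09, with a mean of -0.04 ± 0.07, and the limma adjusted p was 0.803. The 3 dim probes had means from -0.17 to 0.02. The sign turned with the processed signals, at 0.0078.

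Of the genes fixed as partners of Dlk1, Notch3, a Notch receptor, had 1.01 and 1.26, at least 2-fold higher on both arrays, with a limma adjusted p of 0.176. Notch1 had 0.83 and 1.69, a mean of 1.26 ± 0.61. Notch2 had 0.12 and 0.05, and Adam17, a protease that can release Dlk1 from the membrane, -0.30 and 0.09. Thus 3 of the 4 were higher on both arrays, where 40.6 percent of all tested genes were, and 0 passed limma. Of 7 adipocyte markers 4 were tested and 1 was higher on both arrays, with a median of -0.02.

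Plagl1, also called Zac1, encodes a paternally expressed zinc finger transcription factor that has been placed at the centre of the imprinted gene network. Its tested probe had levels of 7.65 in knockdown and 7.57 in control RNA on array 1, and 9.41 and 9.32 on array 2. Both RNAs of array 2 were higher than both RNAs of array 1, by 3.38-fold in knockdown and 3.35-fold in control RNA. The change in knockdown RNA ranked 23 and that in control RNA 72 from the top of 18068 genes. The ratio barely moved, at 0.07 and 0.09, a mean of 0.08 ± 0.01 (SD, n = 2), with a limma adjusted p of 0.606. The levels thus differed between the arrays far more than between knockdown and control. A dim probe gave 0.04 and -0.16.

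Ndn, or necdin, is a paternally expressed protein of the MAGE family that restrains proliferation and is active in muscle precursors. Its levels were 8.30 in knockdown and 8.15 in control RNA on array 1, and 8.84 and 8.88 on array 2. The log2 ratios were 0.15 and -0.04, a mean of 0.05 ± 0.14 (SD, n = 2), with a limma adjusted p of 0.793, and the groups overlapped. Median centring gave 0.20, close to the 0.21 of all tested genes in that setting.

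Grb10 encodes an adaptor that binds the insulin and insulin-like growth factor receptors and restrains growth, and is maternally expressed in most tissues. Only 1 of its 3 probes was bright enough, and on array 1 the knockdown RNA was too dim there to be well above background. The levels were 7.06 in knockdown and 7.24 in control RNA on array 1, and 6.73 and 6.84 on array 2. The log2 ratios were -0.18 and -0.11, a mean of -0.15 ± 0.05 (SD, n = 2), with a limma adjusted p of 0.395. It was the only member lower on both arrays. Median centring and the authors' deposited table both gave -0.40, and the processed signals -0.34. Of its receptors and fellow adaptors, Igf1r had 0.31 and 0.30, and Grb2 0.33 and 0.28. Irs1 had -0.07 and 0.27, Insr -0.12 and 0.39, and Grb14 0.49 and -1.40. None passed limma.

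**Figure D3:**
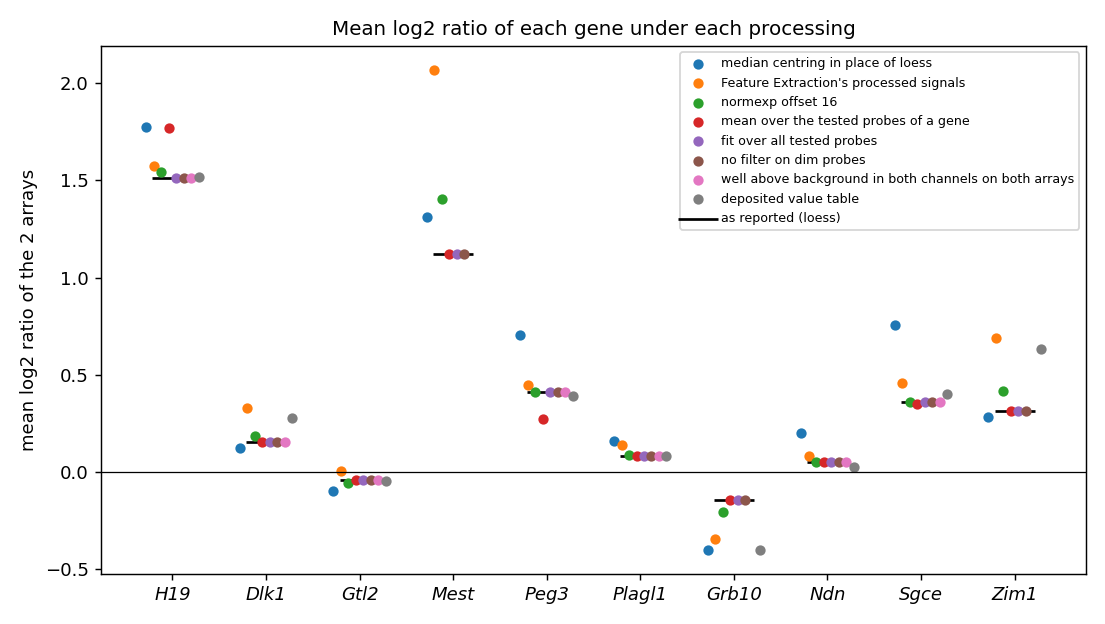
Mean log2 ratio of the 2 arrays for each gene as reported (black bars) and under each other processing with both arrays (points). H19 stays between 1.51 and 1.77, Mest reaches 2.07 with the processed signals, and Peg3 and Sgce are highest under median centring.

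Across the 10 genes, 6 were higher on both arrays, 1 was lower on both and 3 had opposite signs. Zim1 among the higher, Grb10 as the lower, and Mest each had a channel not well above background on 1 array. On that array they were tested through the brighter channel alone, so the counts and medians given here rest partly on dim readings. Over all tested genes 40.6 percent were higher on both arrays and 29.4 percent lower. At an unadjusted limma p under 0.05, 3 members were higher (H19, Peg3 and Sgce) and 0 lower, where all tested genes gave 13.4 and 7.49 percent. The median ratio of the 10 was 0.11 on array 1 and 0.31 on array 2, against 0.03 and 0.03 for all tested genes. Of the 6 paternally expressed members, 4 were higher on both arrays and 2 had opposite signs (Mest and Ndn). Of the 4 maternally expressed members, H19 and Zim1 were higher, Grb10 lower, and Gtl2 had opposite signs. The probes do not tell the parental copies apart. The extremes were H19 at 1.51 and Grb10 at -0.15.

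A further list held genes that lie in the imprinted domains of the members or next to them. Of 30 such genes, Cdkn1c of an adjacent domain among them, 26 were on the array and 14 were tested. The 30 are not a full set, and some tested genes of these domains are counted only in the whole list that follows. Of those 14, 6 were higher on both arrays, 4 lower and 4 had opposite signs, with a median of 0.06, and 0 were at least 2-fold apart on both. These counts lie near the shares of all tested genes, 40.6 percent higher on both arrays and 29.4 percent lower. Igf2, the growth factor that shares its control region with H19, was well above background in only 1 of 4 channels at its brighter probe, so it has no tested ratio. There the scanner read 89.7 for knockdown against 73.8 for control on array 1, and 130.3 against 80.7 on array 2. These signals are uncorrected, and Cy5 was brighter than Cy3 over each array. The normalized log2 ratios at that probe, which were not tested, were -0.02 and 0.06. Cdkn1c, a cyclin-dependent kinase inhibitor of the adjacent domain, had 0.76 and 1.18, a mean of 0.97 ± 0.29, with a limma adjusted p of 0.178. Around Sgce, Asb4 had -1.16 and -0.50, with knockdown RNA on array 1 too dim to be well above background, Casd1 0.10 and -0.26, Pon2 -0.01 and -0.19, and Pon3 0.17 and 0.20. Peg10, the paternally expressed neighbour of Sgce, was not well above background in any channel. In the other domains Peg12 near Ndn had -0.74 and -0.38, Magel2 0.15 and 0.06, and Mkrn3 0.05 and 0.25. Snrpn had 0.21 and -0.23, and Ube3a -0.12 and -0.31. Copg2 beside Mest had 0.23 and -0.07, so it did not share Mest's reading on array 2. Usp29 beside Peg3 had 0.02 and 0.27, Ddc beside Grb10 0.26 and 0.13, and Cobl -0.38 and 0.45. In the domain of Dlk1 and Gtl2, Rian, Mirg and Dio3 had no channel well above background at their brightest probe.

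Over the whole list of 77 other imprinted genes, 69 were on the array and 47 were tested. Of the 47, 19 were higher on both arrays and 12 lower, where all tested genes gave 40.6 and 29.4 percent. The median of the 47 was 0.05 on each array, beside 0.03 for all tested genes, and none passed limma. Qpct, glutaminyl-peptide cyclotransferase, was the only one at least 2-fold apart on both arrays, with 1.17 and 3.23 (mean 2.20 ± 1.46) and a limma adjusted p of 0.200. Igf2r, the receptor that clears Igf2, had 0.23 and 0.78. Dcn, decorin, a matrix proteoglycan, had 0.25 and 1.38, and Gnas, a G protein subunit, -0.02 and 0.25. Of the 22 that were on the array but not tested, 12 had no channel well above background at their brightest probe.

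**Figure D4:**
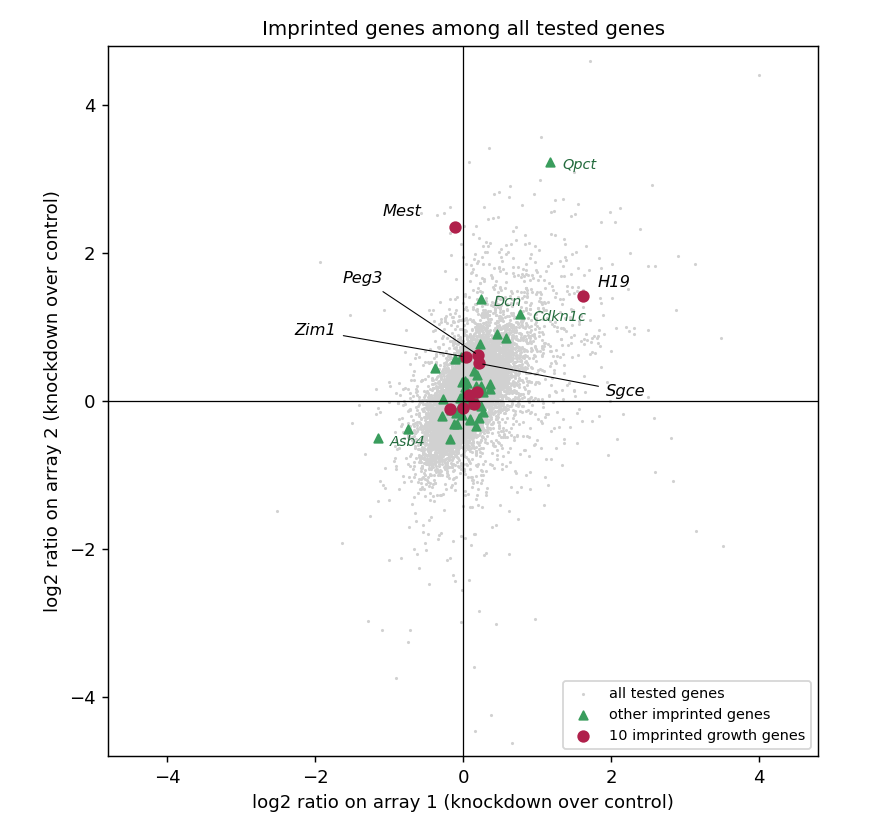
Log2 ratio on array 1 (x axis) against array 2 (y axis) for all 18068 tested genes (grey), the 47 tested other imprinted genes (triangles) and the 10 members (circles). H19 lies beyond 1.4 on both axes, Mest lies high on array 2 and near 0 on array 1, and most other members lie within the cloud.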

How the data were processed

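Per the labels, knockdown RNA was labelled with Cy5 and control RNA with Cy3 on both arrays. Per the file headers, Agilent Feature Extraction 9.5.3.1 quantified the scans, and probe positions are on mm8. The deposited mean and background intensity of each spot carry no background subtraction, per the file headers. The processed intensity values and their log10 ratio, also deposited, are background-subtracted and dye-normalized. The authors' deposited table held log2 values for 40477 probes with a median of 0 on each array. Against the processed ratios they had slopes of 0.995 and 0.847 (r of 0.997 and 0.921), so the deposited values were taken as log2 ratios of knockdown over control. How they were filtered is unknown.

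Here signals were corrected by normexp (offset 50) and ratios normalized by loess (span 0.3), using limma 3.58.1 in R 4.3.3. Control spots (1639) were given weight 0, and spots with outlier flags (154 on array 1, 237 on array 2) were left out. Channel levels were taken after loess and Aquantile. A probe was tested where at least 1 channel was well above background on both arrays, and the brightest tested probe stood for a gene. Names came from RefSeq accessions (23374 probes), current symbols (6735) or synonyms (2907) of GRCm38.p6, otherwise the file (8158). Ratios were tested against 0 with limma (two-sided) and Benjamini-Hochberg adjustment over 18068 genes; the fit was tested on simulated data. The number of arrays limits the precision. The members and lists were chosen with earlier results of these data known. Named were all members, genes of their domains and partner lists, and list genes past 2-fold on each array; 1 partner gene is not reported here. Alternatives changed the normalization, signal, offset, probe rule, filter and source.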

Additional observations from a re-analysis of the deposited data

How the results depend on the processing

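The ratios of H19, Dlk1, Mest, Peg3, Plagl1, Ndn, Sgce and Zim1 stayed above 0, and that of Grb10 below 0, under every processing with both arrays that gave them a value. Gtl2 turned to 0.0078 with the processed signals; the cause was not tested. Median centring called 3 members (H19, Peg3 and Sgce) and 3095 genes, 3037 higher and 58 lower; no other setting called a member. Genes past 2-fold in 1 direction on each array numbered 124 as reported, 295 under median centring, 288 with the processed signals and 245 in the deposited table, and 278 to 644 on single arrays. On single arrays 1 to 2 members passed that fold, the second being Mest on array 2. The median of the other imprinted genes, 0.05 as reported, was 0.25 under median centring, 0.058 with offset 16, 0.040 as the mean over probes, 0.024 with no filter, 0.060 with both channels above background and -0.0031 in the deposited table. Mest was below 0 on array 1 alone (-0.12) and Ndn on array 2 alone (-0.04), while Gtl2 was 0.0026 on array 1 alone. A single array allows no test. The comparison was already paired, because both RNAs of a replicate share 1 array and their ratio was tested against 0.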

Other observations

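Of 18 listed genes that maintain imprints or read them, 17 were on the array and 16 were tested. Of the 16, 10 were lower and 4 higher on both arrays, where all tested genes gave 29.4 and 40.6 percent. The median of the 16 was -0.07, and none passed limma. At an unadjusted limma p under 0.05, 3 were lower (Hells, Uhrf1 and Mbd3) and 0 higher, where 7.49 percent of all tested genes were lower and 13.4 percent higher. These genes and those that follow were named after their values were seen. Uhrf1, which brings the maintenance methyltransferase to newly copied DNA, had -0.48 on array 1 and -0.39 on array 2. Hells, a chromatin remodeller needed for DNA methylation, had -0.53 and -0.78, and Mbd3, a methyl-CpG-binding domain protein, had -0.23 and -0.47. Dnmt1, the maintenance methyltransferase, had -0.17 and -0.09, and Ctcf, which binds the control region between H19 and Igf2, had -0.20 and -0.13. Zfp57 had -0.01 and -0.10, and Trim28, the corepressor it recruits, had 0.01 and -0.03. Dnmt3a, a de novo methyltransferase, had 0.08 and 0.31.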
